A study of Mus musculus with 23 samples.

Results

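The hypothalamus, the brain region that sets feeding, body temperature and hormone release, was compared between 4 C57BL/6 mice given oxaliplatin at 10 mg/kg and 3 C57BL/6 mice given vehicle. Oxaliplatin is a platinum drug that crosslinks DNA and is used against colorectal cancer, and the study asked how it alters transcripts in tissues that matter for wasting. The comparison took the 7 hypothalamus libraries, all of those labelled as hypothalamus, out of 23 libraries of a series that also sampled muscle and fat, and it was described over all genes in the hypothalamus table. Tissue was taken after 8 weeks of treatment. Both groups were inbred C57BL/6, with no allele or other agent named. The sources used here give no sex, age, route or dosing schedule. The titles number the samples M2, M3, M4 and M5 with oxaliplatin and M1, M2 and M4 with vehicle, and these are called mice here. Since the labels say no more on how the samples were taken, p-values measure the spread between these samples. Values by library are given in the order of these numbers within each group.

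Endothelial cells line the vessels of the brain, where they form the blood-brain barrier together with pericytes, which wrap the capillary wall. They answer to vascular endothelial growth factor, to ligands of the transforming growth factor family and to blood-borne cytokines. In the arcuate nucleus of the hypothalamus, neurons that make Agrp and Npy drive feeding and neurons that make Pomc restrain it. Glucocorticoids, the steroid hormones of the stress response, and cytokines of the acute phase reach vessels and neurons of this region.

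Levels below are normalised counts per 1 M counts (CPM), from deposited read counts estimated per gene, with library sizes corrected by the trimmed mean of M-values (TMM). Each change is given as a log2 fold change, oxaliplatin over vehicle, ± its standard error (SE) from edgeR's quasi-likelihood test. A gene was called at an adjusted p under 0.05 after Benjamini-Hochberg adjustment over all genes tested. Total counts were 23.6 to 26.4 mega counts (M) per oxaliplatin library and 27.3 to 28.5 M per vehicle library, so every oxaliplatin library was shallower. With every library thinned to the smallest total, 25 genes were called, all of them among the genes described here. The small RNAs 7SL, 7SK and RNase P took 6.00% to 7.58% of counts with oxaliplatin and 7.30% to 9.88% with vehicle, and mitochondrial genes 2.83% to 3.28% and 2.99% to 3.11%. Of 25 genes listed for hypothalamic neurons, 25 were tested. Their summed level was 1092 to 1548 CPM with oxaliplatin and 1224 to 1626 CPM with vehicle. Avp alone averaged 418 CPM with oxaliplatin and 310 CPM with vehicle. Of the 25 genes, 18 had a log2 fold change below 0, and the median was -0.21. No other tissue was compared, so these values cannot check the tissue label.

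Among the oxaliplatin libraries, those of mice 2 and 5 stood apart, each in its own way. On the first principal component, which carried 37.3% of the variance, the scores were -59.6, -19.2, -16.9 and 23.0 with oxaliplatin and 22.4, 24.2 and 26.1 with vehicle, so mouse 5 lay among the vehicle mice. The label of that hypothalamus sample says oxaliplatin, while the muscle sample of the same number has an oxaliplatin title and a vehicle treatment entry. Mouse 2 held high levels of markers of cortex, hippocampus and striatum neurons. Slc17a7, the vesicular glutamate transporter of cortical neurons, stood at 602, 4.69, 25.1 and 15.7 CPM with oxaliplatin and 27.3, 2.16 and 7.57 CPM with vehicle. Ppp1r1b, a phosphatase regulator of striatal neurons, stood at 307, 47.6, 48.3 and 24.1 CPM with oxaliplatin and 24.5, 29.7 and 29.1 CPM with vehicle. The counts of called genes without either mouse are given with the results.

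In oxaliplatin hypothalamus, genes of vessels and of the acute phase were among those that rose, and no gene was called lower by edgeR. Of 18941 genes tested, 28 were called (0.148%), and all 28 were higher with oxaliplatin. The share called lower was 0.00%, and at an unadjusted p under 0.05 there were 1174 higher and 758 lower genes. These 1932 of 18941 genes are the base for counts of unadjusted p in the gene lists below. The share of 0.148% is the base for counts of genes called by edgeR in those lists. DESeq2 called 223 higher and 43 lower, limma-voom 11 higher and 0 lower, and limma-voom with sample quality weights 247 higher and 116 lower. The called changes ran from 0.88 to 5.31 on the log2 scale, and 27 of the 28 were at least 1, against a median of 0.01 over all genes tested. All 4 oxaliplatin libraries lay above all 3 vehicle libraries in each of the 28. Over all genes tested, this was so for 5.58%, and the opposite was so for 4.35%. Among oxaliplatin mice, mouse 5 was lowest in 25 of the 28 called genes, and the highest value fell in mouse 2 for 17, mouse 3 for 10 and mouse 4 for 1.

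**Figure D1:**
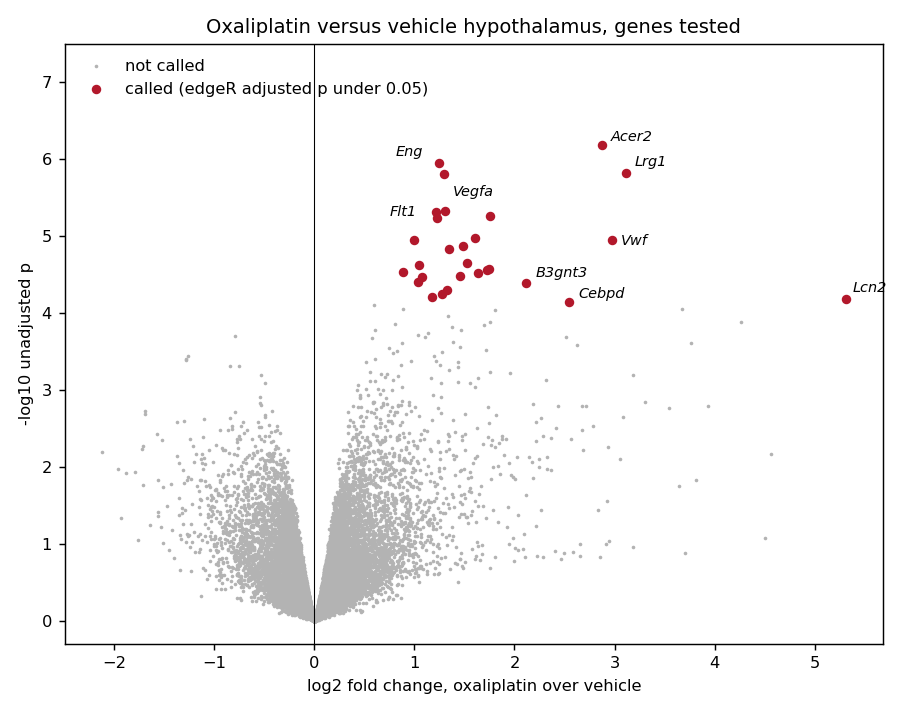
Log2 fold change of oxaliplatin over vehicle (x axis) against -log10 of the unadjusted p (y axis) for the 18941 genes tested in hypothalamus, with red points for the 28 called at an edgeR adjusted p under 0.05. All red points lie to the right of 0, and Lcn2 lies farthest to the right at 5.31.

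The number of calls depended on single libraries. Without oxaliplatin mouse 2, 31 genes were called, all higher, and 25 of them were among the 28. Without oxaliplatin mouse 3 the count was 6, and without oxaliplatin mouse 4 it was 2. Without oxaliplatin mouse 5, 655 of 18781 genes were called, 399 higher and 256 lower, and they held all 28. These numbers are the base for the list counts without mouse 5 below. Mouse 5 was set apart for lying among the vehicle mice on the first principal component. Leaving it out therefore favours more calls, and the counts without it are no separate support. Without vehicle mouse 1 or vehicle mouse 2 the count was 1, and without vehicle mouse 4 it was 0, with 1152 genes at an unadjusted p under 0.05. In each of these 7 fits, all 28 genes kept a positive log2 fold change, while each of the 28 lost its call in at least 2 of them.

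**Figure D2:**
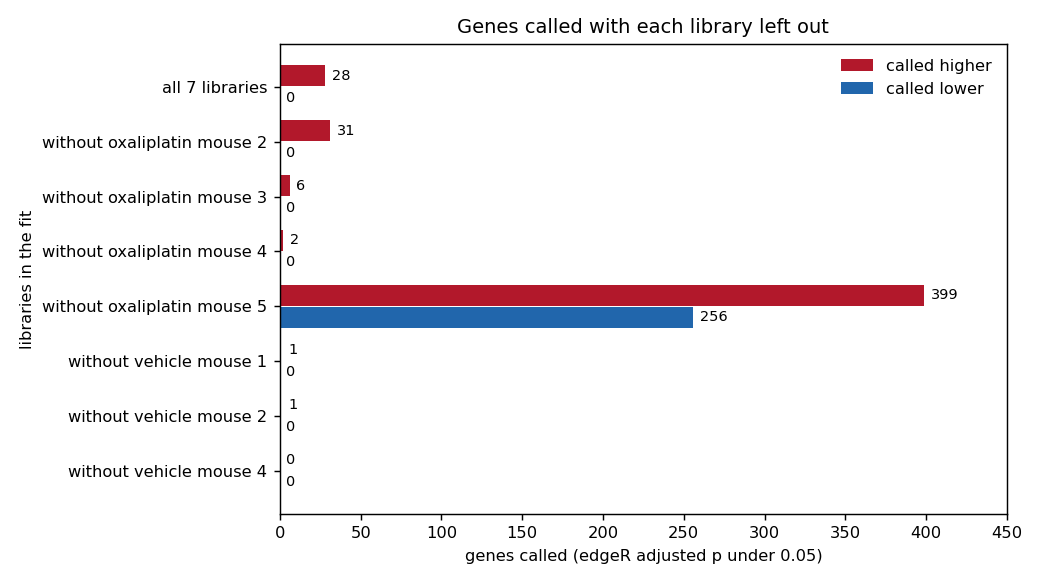
Genes called higher (red) and lower (blue) at an edgeR adjusted p under 0.05 (x axis) in the fit of all 7 libraries and with each library left out (y axis). The bars reach 399 higher and 256 lower without oxaliplatin mouse 5, against 28 and 0 with all libraries.

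The largest rise was that of Lcn2, lipocalin 2, an acute phase protein that binds bacterial iron carriers. Lcn2 stood at 11.7, 6.54, 3.96 and 3.13 CPM in oxaliplatin mice, against 0.0684, 0.324 and 0.0738 CPM in vehicle mice. The groups were far apart, with the highest oxaliplatin value in mouse 2. The vehicle libraries held only 2, 9 and 2 counts of Lcn2, so the size of its log2 fold change, 5.31 ± 0.71 (edgeR adjusted p = 0.0458), rests on few reads.

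Lrg1, leucine-rich alpha-2-glycoprotein, is made in the acute phase and in activated endothelium, where it binds the co-receptor endoglin. Lrg1 stood at 5.72, 5.88, 4.96 and 4.61 CPM with oxaliplatin and 0.411, 0.972 and 0.443 CPM with vehicle. The 4 oxaliplatin values lay close together and well above every vehicle value (3.11 ± 0.31, edgeR adjusted p = 0.00738). Cebpd, a transcription factor of acute phase genes, stood at 30.3, 29.4, 23.8 and 11.9 CPM with oxaliplatin and 3.22, 4.00 and 5.02 CPM with vehicle (2.55 ± 0.34, edgeR adjusted p = 0.0483). Il1r1, the signalling receptor of interleukin-1, stood at 8.66, 8.64, 6.54 and 6.34 CPM with oxaliplatin and 3.46, 2.48 and 3.10 CPM with vehicle (1.32 ± 0.19, edgeR adjusted p = 0.0400). In both genes every oxaliplatin mouse was higher than every vehicle mouse, and mouse 5 was the lowest of the oxaliplatin mice.

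Vwf, von Willebrand factor, the clotting glycoprotein that endothelial cells store and secrete, stood at 252, 311, 252 and 128 CPM with oxaliplatin and 29.0, 27.3 and 33.8 CPM with vehicle. The lowest oxaliplatin library was thus above all vehicle libraries by a wide margin (2.97 ± 0.30, edgeR adjusted p = 0.0193). Acer2, the Golgi ceramidase that releases sphingosine, stood at 51.9, 53.1, 43.1 and 31.2 CPM with oxaliplatin and 7.87, 5.51 and 4.95 CPM with vehicle. It had the smallest p of all genes, and it was 7.32-fold higher (2.87 ± 0.23, edgeR adjusted p = 0.00738). Over all 18 alternative fits, Acer2 was called in 16, Lrg1 in 14, Vwf in 13, and Lcn2 and Cebpd in 10. Their highest adjusted p values, each from a fit without 1 vehicle mouse, were 0.0941 for Acer2, 0.1 for Lrg1, 0.175 for Vwf, 0.342 for Lcn2 and 0.415 for Cebpd. These came without vehicle mouse 4 for Acer2, Lrg1 and Lcn2 and without vehicle mouse 2 for Vwf and Cebpd.

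**Figure D3:**
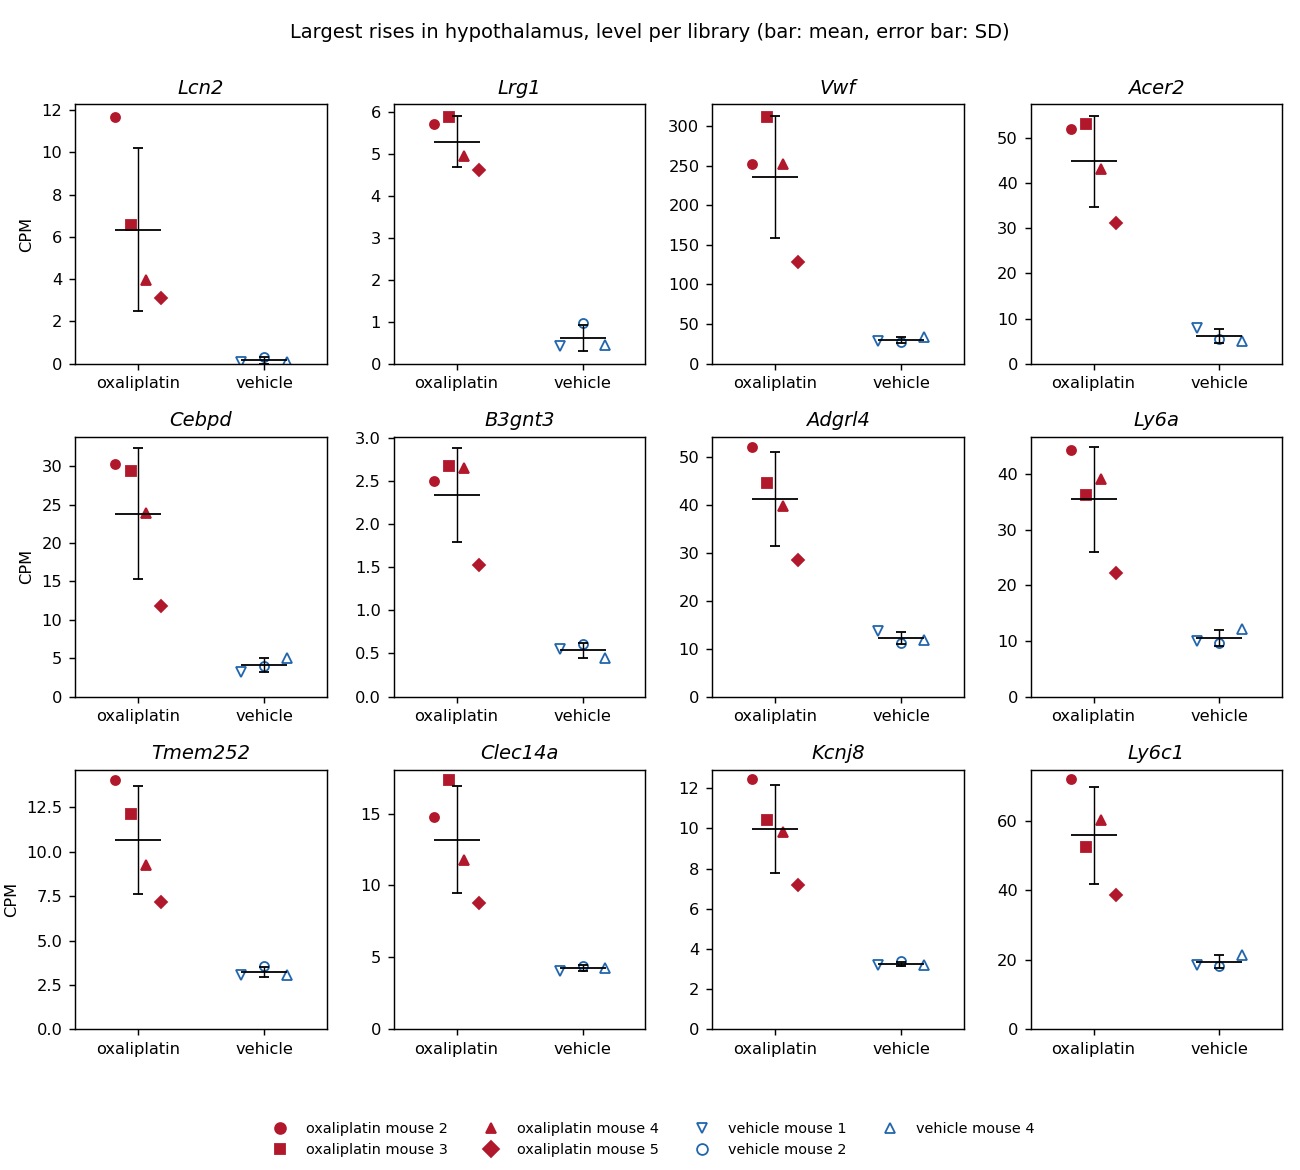
Level in CPM (y axis) of the 12 largest called rises by group (x axis), with a symbol for each library, a horizontal bar at the mean and an error bar of 1 SD. In each panel the 4 oxaliplatin libraries lie above the 3 vehicle libraries, and oxaliplatin mouse 5 is the lowest of the oxaliplatin mice in all 12 panels.

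On GRCm38, Vwf (ENSMUSG00000001930) lies at chr6:125546774-125686679 on the plus strand and Acer2 (ENSMUSG00000038007) at chr4:86874396-86934822 on the plus strand. Lcn2 (ENSMUSG00000026822) lies at chr2:32384633-32388252 and Lrg1 (ENSMUSG00000037095) at chr17:56119678-56122001, both on the minus strand. All 4 are annotated as protein-coding. Of the 28 called genes, 21 had an entry among the RefSeq promoters of GRCm38.p6, with 24 promoters in all, each running from 250 bases before the start to 50 after it. The promoters of 3 of the largest rises follow, 5′ to 3′ on the strand of the gene, to show what precedes genes that rose together. Capitals mark matches, on either strand, to letters bound by C/EBP factors (TTNNGNAA) or by ETS factors (AGGAAG).

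Lcn2, chr2:32387690-32387989, minus strand: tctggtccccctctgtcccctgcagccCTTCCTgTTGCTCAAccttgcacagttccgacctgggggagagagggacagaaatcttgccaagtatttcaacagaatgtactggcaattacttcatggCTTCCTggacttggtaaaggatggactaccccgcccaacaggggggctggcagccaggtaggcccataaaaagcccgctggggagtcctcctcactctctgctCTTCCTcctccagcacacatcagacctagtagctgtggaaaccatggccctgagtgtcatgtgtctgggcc

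Lrg1, chr17:56121897-56122196, minus strand: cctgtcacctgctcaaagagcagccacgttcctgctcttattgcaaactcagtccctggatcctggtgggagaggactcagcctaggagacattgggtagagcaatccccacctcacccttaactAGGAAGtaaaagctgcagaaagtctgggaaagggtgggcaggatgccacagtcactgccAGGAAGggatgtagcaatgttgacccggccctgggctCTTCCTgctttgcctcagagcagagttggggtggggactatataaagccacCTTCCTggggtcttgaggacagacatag

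Acer2, chr4:86874164-86874463, plus strand: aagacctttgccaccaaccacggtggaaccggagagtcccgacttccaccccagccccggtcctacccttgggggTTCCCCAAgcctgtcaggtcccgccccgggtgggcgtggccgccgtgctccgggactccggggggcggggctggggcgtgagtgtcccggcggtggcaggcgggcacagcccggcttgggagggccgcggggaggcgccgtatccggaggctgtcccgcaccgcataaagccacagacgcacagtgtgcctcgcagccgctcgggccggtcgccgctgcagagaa

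The Lcn2 promoter held 1 C/EBP match, which does not overlap its 3 ETS matches, the Lrg1 promoter held 4 ETS matches, and the Acer2 promoter held 1 C/EBP match. Vwf and Cebpd had no entry. Over the 24 promoters of called genes, C/EBP letters occurred in 29.2% and ETS letters in 41.7%, against 40.7% and 35.4% of all 32851 promoters. The core of the hypoxia response element (ACGTG), not capitalised above, occurred in 33.3% of them, against 19.6% of all promoters. The motifs of the glucocorticoid receptor and of NF-kB, sought in the same way, occurred in none of the 24, and in 0.475% and 1.63% of all promoters. These are matches of letters in a short window and say nothing on binding.

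Some of the genes that mark endothelial cells rose in oxaliplatin hypothalamus. Of 20 such markers, all tested, 6 were called higher and none lower, against 0.148% of all genes tested. Their median log2 fold change was 0.80, 19 lay above 0, and the oxaliplatin libraries were all above the vehicle libraries in 12, against 5.58% of all genes. The called members were Eng, Flt1, Pecam1, Ly6c1, Ly6a and Robo4. The summed level of the list was 643 to 851 CPM with oxaliplatin and 410 to 425 CPM with vehicle. In whole tissue, more endothelial cells and more RNA of these genes per cell cannot be told apart.

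Eng, endoglin, a co-receptor of the transforming growth factor family, stood at 55.5, 69.3, 58.1 and 50.1 CPM with oxaliplatin and 23.8, 25.8 and 24.1 CPM with vehicle. No value of either group came near the other, and the change was 1.25 ± 0.12 (edgeR adjusted p = 0.00738). Pecam1, the junction protein CD31, stood at 56.5, 51.8, 49.9 and 31.8 CPM with oxaliplatin and 17.6, 16.0 and 17.2 CPM with vehicle (1.49 ± 0.18, edgeR adjusted p = 0.0212). Ly6a and Ly6c1, surface proteins of the Ly6 family that are abundant on mouse brain endothelium, changed by 1.75 ± 0.22 and 1.52 ± 0.19 (edgeR adjusted p = 0.0297 for each). They belong to a family of similar genes, and the sources used here do not say how reads shared between them were counted. Robo4, an endothelial receptor of the Roundabout family, changed by 1.07 ± 0.15 (edgeR adjusted p = 0.0307).

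Other endothelial markers did not pass. Kdr, the main signalling receptor of vascular endothelial growth factor, had a log2 fold change of 1.80 and an edgeR adjusted p of 0.0536, just past the threshold. Esam and Cdh5, proteins of endothelial junctions, had 1.11 and 0.82 (edgeR adjusted p = 0.0856 and 0.109), and Cldn5, the claudin of the barrier, had 1.18 (edgeR adjusted p = 0.216). In contrast, Tek and Tie1, the receptor kinases of the angiopoietin system, had 0.18 and 0.25, Emcn 0.02, Egfl7 0.18 and Podxl 0.21, with edgeR adjusted p values from 0.547 to 0.981. Itm2a had -0.57 (edgeR adjusted p = 0.497). These last 6 genes were picked after their values were seen, to show the span within the list.

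The library levels of the endothelial list, as mean log2 CPM minus the vehicle mean, were 0.83, 0.84, 0.80 and 0.57 with oxaliplatin and -0.01, 0.00 and 0.01 with vehicle. Unlike in the principal component, mouse 5 lay with the other oxaliplatin mice here. Without mouse 5 the list had 12 calls higher and 1 lower, without mouse 3 it had 2, and without mouse 4 or any 1 vehicle mouse it had 0. Blood markers differed among these libraries as well. Hbb-bs, a haemoglobin chain, stood at 28.1, 22.8, 80.9 and 396 CPM with oxaliplatin and 311, 252 and 222 CPM with vehicle. Of 8 erythroid markers, 7 were tested. Their summed level was 112 to 1380 CPM with oxaliplatin and 693 to 965 CPM with vehicle, lowest in mice 2 and 3 and highest in mouse 5. The part of residual blood in the vessel genes was not tested.

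Called genes that are not on that list include several that are known from endothelium. Adgrl4, an adhesion receptor of endothelial cells, stood at 52.2, 44.7, 39.9 and 28.6 CPM with oxaliplatin and 13.7, 11.2 and 11.8 CPM with vehicle (1.76 ± 0.19, edgeR adjusted p = 0.0136). Clec14a and Cd93, lectin-like proteins of the endothelial surface, changed by 1.63 ± 0.22 and 1.17 ± 0.18 (edgeR adjusted p = 0.0297 and 0.0447). Acvrl1, the receptor kinase ALK1 that works with endoglin, changed by 1.04 ± 0.15 (edgeR adjusted p = 0.0331). Ptprb, a phosphatase that acts on Tek, changed by 0.88 ± 0.12, the smallest called change (edgeR adjusted p = 0.0297). Nostrin, which moves nitric oxide synthase within the cell, changed by 1.46 ± 0.20 (edgeR adjusted p = 0.0307). Igfbp7, a secreted binding protein of vessels, rose to 34.5 ± 4.82 CPM with oxaliplatin, against 17.2 ± 0.619 CPM with vehicle (SD, n = 4 and 3, edgeR adjusted p = 0.0193).

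The remaining called genes outside the lists were B3gnt3 and Tmem252. B3gnt3, a glycosyltransferase, stood at 2.497, 2.67, 2.65 and 1.52 CPM with oxaliplatin and 0.547, 0.612 and 0.443 CPM with vehicle (2.12 ± 0.30, edgeR adjusted p = 0.0331). Tmem252, a membrane protein, changed by 1.72 ± 0.24 (edgeR adjusted p = 0.0297). Their values with oxaliplatin did not overlap those with vehicle.

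Among 15 markers of venous and arterial endothelium, all tested, Vwf, Lrg1 and Lcn2 were called, against 0.148% of all genes tested. The median log2 fold change was 0.59 and 11 lay above 0. The other members did not pass, with Gja5, a connexin of arteries, at 1.81 (edgeR adjusted p = 0.260), Sema3g at 0.77 (0.195) and Ackr1, the chemokine carrier of venules, at 0.59 (0.237). Another 4 members lay below 0, the lowest at -1.20. Without mouse 5 the list had 7 calls higher and 2 lower. The lower ones were Gkn3 (-1.68, edgeR adjusted p = 0.0146) and Vcam1 (-0.46, 0.0494). Over the list, the library levels were 1.06, 1.03, 0.80 and 0.82 with oxaliplatin and -0.08, 0.12 and -0.03 with vehicle. All 4 oxaliplatin mice were above all 3 vehicle mice. The list holds Vwf, Lrg1 and Lcn2 and was chosen with earlier results of these data known. This order is therefore no separate result on venous and arterial endothelium.

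Of 14 markers of pericytes and vascular smooth muscle, all tested, Kcnj8 and Abcc9 were called higher, against 0.148% of all genes tested. Kcnj8 and Abcc9 encode the pore and the regulatory subunit of a potassium channel that closes when ATP is abundant. Kcnj8, its pore subunit, stood at 12.4, 10.4, 9.84 and 7.16 CPM with oxaliplatin and 3.22, 3.38 and 3.21 CPM with vehicle (1.61 ± 0.20, edgeR adjusted p = 0.0193). Abcc9, its regulatory subunit, stood at 26.9, 31.4, 27.4 and 21.4 CPM with oxaliplatin and 11.6, 10.5 and 12.4 CPM with vehicle (1.22 ± 0.14, edgeR adjusted p = 0.0136). The vehicle values of both genes were close together and below all oxaliplatin values. The genes are neighbours on the minus strand of chromosome 6, at chr6:142564837-142571614 for Kcnj8 and chr6:142587862-142702315 for Abcc9.

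Rgs5, a further pericyte marker, stood at 104.8, 123, 108.8 and 124.7 CPM with oxaliplatin and 75.3, 74.4 and 79.8 CPM with vehicle, with a log2 fold change of 0.59 and an edgeR adjusted p of 0.0518. In that gene mouse 5 was as high as the other oxaliplatin mice. Pdgfrb, the growth factor receptor that defines pericytes, had 0.30 (edgeR adjusted p = 0.459), Notch3 -0.13 (0.814) and Acta2, smooth muscle actin, -0.06 (0.953). These 3 were picked after their values were seen. The median over the 14 markers was 0.29, and their summed level was 428 to 567 CPM with oxaliplatin and 364 to 415 CPM with vehicle.

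The growth factor Vegfa and its receptor Flt1 rose in oxaliplatin hypothalamus. Of 28 genes on a list of hypoxia and vessel growth, all tested, edgeR called Vegfa, Flt1 and Slc2a1 higher, against 0.148% of all genes. The median log2 fold change was 0.61, and the groups were apart upwards in 17, against 5.58% of all genes. At an unadjusted p under 0.05 there were 19 of the 28. DESeq2 called 13 higher, limma-voom 2 and limma-voom with quality weights 13, and none lower. Vegfa, the growth factor that makes vessels sprout and leak, stood at 97.8, 94.5, 73.6 and 78.0 CPM with oxaliplatin and 39.2, 33.7 and 32.4 CPM with vehicle (1.29 ± 0.13, edgeR adjusted p = 0.00738). Flt1, its receptor that mostly acts as a sink, stood at 212, 229, 192 and 151.8 CPM with oxaliplatin and 82.8, 80.4 and 90.1 CPM with vehicle (1.22 ± 0.14, edgeR adjusted p = 0.0136). In both genes the oxaliplatin libraries were all well above the vehicle libraries, mouse 5 included.

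Slc2a1, the glucose transporter of the barrier, stood at 353, 352, 289 and 203 CPM with oxaliplatin and 120.1, 121 and 131 CPM with vehicle (1.27 ± 0.18, edgeR adjusted p = 0.0425). Adm, adrenomedullin, a dilator peptide induced by low oxygen, stood at 23.9, 16.7, 14.9 and 5.55 CPM with oxaliplatin and 1.13, 1.19 and 1.26 CPM with vehicle. Its groups did not overlap, yet it missed the threshold (3.68 ± 0.50, edgeR adjusted p = 0.0536) and passed without oxaliplatin mouse 2 (0.0456) and without oxaliplatin mouse 5 (0.000177). Ldha, lactate dehydrogenase A, had 0.78 (edgeR adjusted p = 0.112). Without mouse 5 the list had 13 calls higher and 0 lower.

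Of 28 transporters and junction genes of the blood-brain barrier, Slc2a1 was the 1 called member, and the median was 0.32. Lsr, a protein of tricellular junctions, had 1.22 (edgeR adjusted p = 0.127), Slc6a6, the taurine transporter, 0.75 (0.252), and Abcb1a, the drug efflux pump P-glycoprotein, 0.42 (0.295). Of 35 genes of the extracellular matrix, Col4a1, a collagen chain of the vessel basement membrane, was called higher and the median was 0.02. Col4a1 stood at 104, 98.5, 84.3 and 61.4 CPM with oxaliplatin and 35.3, 33.9 and 33.4 CPM with vehicle (1.35 ± 0.17, edgeR adjusted p = 0.0215). Its partner chain Col4a2 had 0.97 (edgeR adjusted p = 0.127) and Nid2, which links the sheet, 1.47 (0.0779).

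Cxcl12, a chemokine of stroma and endothelium, was the 1 called gene among 11 chemokine genes tested of 22 listed. It stood at 149, 230.1, 220 and 205 CPM with oxaliplatin and 75.5, 81.2 and 86.8 CPM with vehicle (1.31 ± 0.15, edgeR adjusted p = 0.0136). In this gene mouse 2, and not mouse 5, was the lowest of the oxaliplatin mice. Ccl2, Ccl3, Ccl5 and Cxcl10 had too few counts to be tested. Dusp6, a phosphatase that dampens growth factor signalling, changed by 1.04 ± 0.14 (edgeR adjusted p = 0.0297). It was the 1 called gene among 23 tested immediate early genes, whose median was 0.48.

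**Figure D4:**
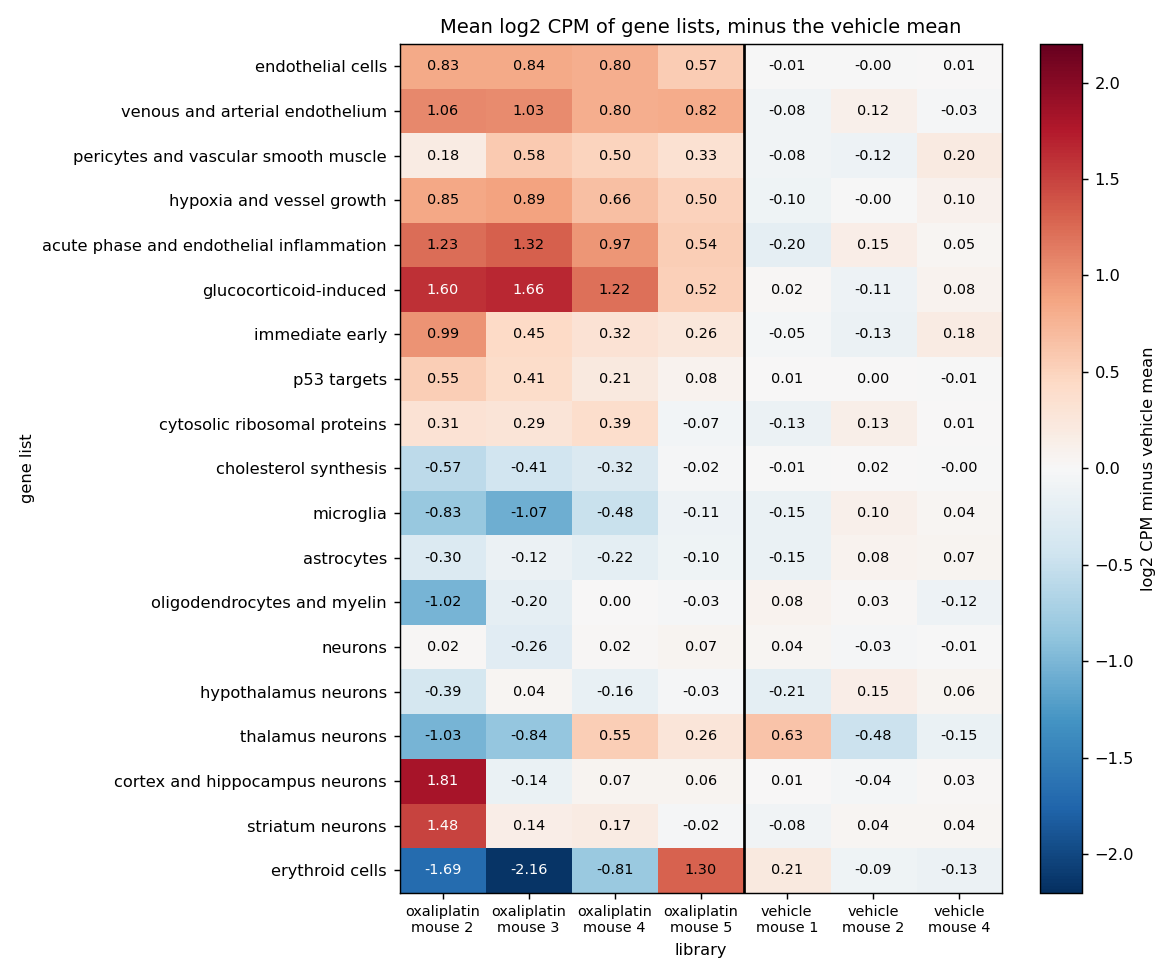
Mean log2 CPM of the members of 19 gene lists (y axis) in each library (x axis) minus the mean of the vehicle libraries, printed in each cell and coloured from blue (lower) to red (higher). The endothelial row reads 0.83, 0.84, 0.80 and 0.57 in the oxaliplatin libraries, and the cortex and striatum rows are high in oxaliplatin mouse 2 only.

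Acute phase genes were called in part. Of 30 genes listed for the acute phase and inflamed endothelium, 21 were tested. Lcn2, Lrg1, Cebpd and Il1r1 were called higher by edgeR, against 0.148% of all genes tested. The median log2 fold change was 0.89, with 17 above 0 and 14 at an unadjusted p under 0.05. DESeq2 called 8 higher, limma-voom 1 and limma-voom with quality weights 6, and none lower. Lcn2 and Lrg1 were named with the comparison at the outset, and the list was chosen with earlier results of these data known. The calls of Lcn2 and Lrg1 are therefore no separate result on the acute phase. Icam1, an adhesion molecule for leukocytes, had 1.60 (edgeR adjusted p = 0.187), Osmr, the receptor of oncostatin M, 1.51 (0.308), and Nfkbia, the inhibitor of NF-kB, 0.97 (0.252). Tnf and Il1b, cytokines that drive this response, had too few counts to be tested, with 1 to 3 and 0 to 8 counts in oxaliplatin libraries and 2 and 0 to 2 in vehicle libraries. The levels of the list were 1.23, 1.32, 0.97 and 0.54 with oxaliplatin and -0.20, 0.15 and 0.05 with vehicle. Without mouse 5 the list had 9 calls higher and 1 lower, and without mouse 2 it had 3 calls and a median of 0.56.

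Genes that glucocorticoids induce were called by edgeR in 4 of 27 tested members of 28 listed, against 0.148% of all genes tested. In sign, 27 of 27 lay above 0, and 26 had an unadjusted p under 0.05. DESeq2 called 15 higher, limma-voom 1 and limma-voom with quality weights 13, and none lower. The members called by edgeR, Acer2, Slc2a1, Lcn2 and Cebpd, also stand on other lists. Their known roles are in ceramide turnover, glucose transport and the acute phase. Acer2 and Lcn2 were named with the comparison at the outset, and the list was chosen with earlier results of these data known. The calls of Acer2 and Lcn2 are therefore no separate result on glucocorticoids. The median log2 fold change was 1.07, and the groups were apart upwards in 15, against 5.58% of all genes. The list levels were 1.60, 1.66, 1.22 and 0.52 with oxaliplatin and 0.02, -0.11 and 0.08 with vehicle. Mouse 5 was the lowest of the oxaliplatin mice, and it remained above each vehicle mouse.

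The best known targets on that list did not pass by edgeR with all 7 libraries. Fkbp5, which binds the glucocorticoid receptor, stood at 137, 112, 65.7 and 34.6 CPM with oxaliplatin and 31.4, 32.5 and 37.4 CPM with vehicle, so that mouse 5 lay within the vehicle range (1.37 ± 0.46, edgeR adjusted p = 0.435). Sgk1, a kinase of salt balance, stood at 129.6, 209.5, 164 and 90.1 CPM with oxaliplatin and 62.8, 24.3 and 46.4 CPM with vehicle (1.74 ± 0.41, edgeR adjusted p = 0.308). Tsc22d3 had 0.71 (edgeR adjusted p = 0.371), Per1 0.44 (0.237) and Ddit4 1.56 (0.172). The metallothioneins Mt1 and Mt2 had 0.67 and 0.72 (edgeR adjusted p = 0.393 and 0.372). Without mouse 5, 22 members of the list were called higher and 0 lower, among them Fkbp5 (1.62, edgeR adjusted p = 0.0261) and Mt1 (0.83, 0.00985), while Sgk1 (1.90, 0.0623) was not. Without mouse 2, 2 members were called.

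Of 29 tested targets of p53, the factor that DNA damage activates, edgeR and limma-voom called 0 and DESeq2 and limma-voom with quality weights called 2, all higher, and the median was 0.24. Cdkn1a, which encodes the cell cycle inhibitor p21, stood at 55.2, 75.0, 39.0 and 13.3 CPM with oxaliplatin and 5.27, 7.16 and 7.42 CPM with vehicle. The groups did not overlap, but the spread among oxaliplatin mice was wide. Its change was 2.79 ± 0.60 (edgeR adjusted p = 0.285, 0.00218 without mouse 5 and 0.443 without mouse 2). Pmaip1, a promoter of cell death, had 1.26 (edgeR adjusted p = 0.254) and Rrm2b, a subunit of ribonucleotide reductase, 0.31 (0.338). At an unadjusted p under 0.05 there were 6 of the 29, against 1932 of all 18941 genes tested.

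The 24 genes of DNA crosslink repair and 13 tested of 15 platinum transporters had medians of -0.05 and 0.16 with 0 calls by edgeR, DESeq2 or limma-voom. Limma-voom with quality weights called 0 repair genes and 1 transporter. Unadjusted p values under 0.05 were found for 1 and 2 of them. Acer2 was the 1 called gene among 30 tested genes of ceramide and sphingosine metabolism, and their median was -0.01.

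No feeding peptide passed the test over all mice, while 3 of the 4 oxaliplatin mice had high Npy and Agrp. Npy, which drives feeding, stood at 86.4, 95.6, 108.3 and 19.6 CPM with oxaliplatin and 10.9, 12.99 and 15.4 CPM with vehicle. All oxaliplatin mice were above all vehicle mice, mouse 5 by little (2.57 ± 0.59, edgeR adjusted p = 0.308). Agrp, made in the same arcuate neurons, stood at 12.8, 17.0, 13.3 and 2.63 CPM with oxaliplatin and 2.43, 1.62 and 3.21 CPM with vehicle, with mouse 5 inside the vehicle range (2.24 ± 0.61, edgeR adjusted p = 0.348). Without mouse 5, the oxaliplatin mouse nearest to vehicle in both genes, both passed (Npy 2.88, edgeR adjusted p = 0.000164, and Agrp 2.56, 0.00181). Without mouse 2 neither passed (Npy 2.51, edgeR adjusted p = 0.47, and Agrp 2.18, 0.512).

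Pomc, the precursor of the satiety peptide alpha-MSH, stood at 2.90, 12.1, 6.23 and 14.2 CPM with oxaliplatin and 20.7, 32.2 and 39.0 CPM with vehicle. Every oxaliplatin mouse was below every vehicle mouse, mouse 5 included. Pomc did not pass (-1.79 ± 0.52, edgeR adjusted p = 0.378, 0.110 without mouse 5 and 0.381 without mouse 2). Hcrt, the wake peptide orexin of the lateral hypothalamus, stood at 67.0, 70.2, 90.2 and 120.5 CPM with oxaliplatin and 129, 159.6 and 149 CPM with vehicle. Its change was -0.75 ± 0.20 (edgeR adjusted p = 0.308, 0.00985 without mouse 5 and 0.396 without mouse 2). Cartpt, which also restrains feeding, had -0.62 (edgeR adjusted p = 0.632) and Pmch, a peptide of the lateral hypothalamus, -0.35 (0.790), and both overlapped between groups.

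**Figure D5:**
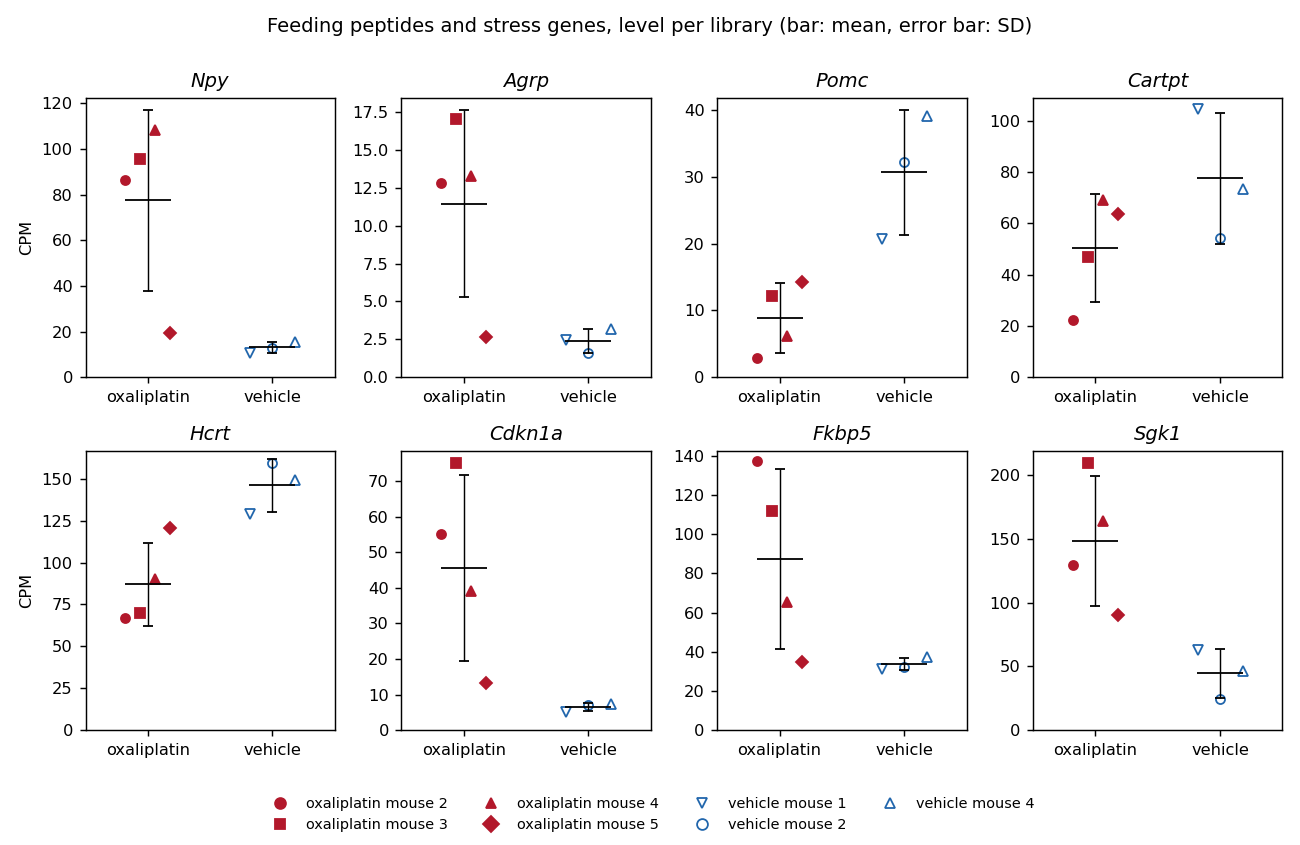
Level in CPM (y axis) of Npy, Agrp, Pomc, Cartpt, Hcrt, Cdkn1a, Fkbp5 and Sgk1 by group (x axis), with a symbol for each library, a horizontal bar at the mean and an error bar of 1 SD. Oxaliplatin mouse 5, the diamond, is at 19.6 CPM for Npy and 2.63 CPM for Agrp, next to the vehicle libraries.

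Over the lists, edgeR called 0 of 10 tested orexigenic and 0 of 13 tested anorexigenic peptide genes, with medians of -0.09 and -0.07. At an unadjusted p under 0.05 there were 4 and 1 of them. DESeq2 called 4 orexigenic peptide genes, of which 2 were higher and 2 lower, and 0 anorexigenic ones. Limma-voom called 0 on either list, and with quality weights 2 and 1. The leptin receptor Lepr had 0.15 (edgeR adjusted p = 0.868) and the melanocortin receptor Mc4r 0.20 (0.774). Of 30 tested genes of feeding receptors and leptin signalling, edgeR, DESeq2 and limma-voom called 0 at a median of 0.10, with 6 at an unadjusted p under 0.05, and limma-voom with quality weights called 2.

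Among hormones of the hypothalamus, Crh, which starts the stress axis, had a log2 fold change of 0.48 (edgeR adjusted p = 0.579), Trh 0.01 (0.994), Ghrh -0.06 (0.970) and Sst 0.18 (0.795). The posterior pituitary hormones Oxt and Avp had -0.27 (edgeR adjusted p = 0.833) and 0.43 (0.552), and Gnrh1, at under 1 CPM in each library, had -1.28 (0.559). The groups overlapped in each of these 7 genes. Kiss1 had too few counts to be tested. Of 31 tested genes of this kind, edgeR, DESeq2 and limma-voom called 0, limma-voom with quality weights called 1, and 3 had an unadjusted p under 0.05.

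Most microglial markers and most genes of sterol synthesis lay below 0, and edgeR and limma-voom called none of them. DESeq2 called 0 microglial and 1 sterol gene lower, and limma-voom with quality weights 5 and 3. Of 16 microglial markers, 15 lay below 0 with a median of -0.50, and their summed level was 223 to 348 CPM with oxaliplatin and 322 to 402 CPM with vehicle. Aif1, a calcium-binding protein of microglia, stood at 0.967, 0.781, 0.961 and 1.52 CPM with oxaliplatin and 1.85, 2.16 and 2.29 CPM with vehicle (-0.98 ± 0.28, edgeR adjusted p = 0.322). Its groups did not overlap, and mouse 5 was the oxaliplatin mouse nearest to vehicle. Without mouse 5, 6 microglial markers were called lower and 0 higher, against 256 lower and 399 higher among all 18781 genes of that fit.

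Of 22 genes of cholesterol synthesis and transport, 20 lay below 0 at a median of -0.32. Dhcr7, an enzyme of the last steps, stood at 22.9, 23.1, 25.4 and 31.3 CPM with oxaliplatin and 33.9, 38.2 and 36.7 CPM with vehicle (-0.50 ± 0.12, edgeR adjusted p = 0.262). Again no oxaliplatin value reached the vehicle range. The levels of the list were -0.57, -0.41, -0.32 and -0.02 with oxaliplatin and -0.01, 0.02 and 0.00 with vehicle, and without mouse 5 there were 10 calls lower. At an unadjusted p under 0.05 there were 12 of 22 sterol genes and 7 of 16 microglial genes, against 1932 of all 18941 genes tested.

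Astrocyte markers had a median of -0.19 over 16 genes, with 10 below 0 and 8 at an unadjusted p under 0.05. Calls lower were 0 by edgeR and limma-voom, 1 by DESeq2 and 4 by limma-voom with quality weights. Without mouse 5, 3 astrocyte markers were called lower and 0 higher. Gfap, the filament protein of astrocytes, stood at 147, 181.5, 138 and 172.5 CPM with oxaliplatin and 185, 319.6 and 289.8 CPM with vehicle (-0.73 ± 0.18, edgeR adjusted p = 0.285). The groups were apart, with vehicle mouse 1 close to the oxaliplatin mice. Markers of oligodendrocytes and of neurons had medians of -0.25 and -0.04. The 37 genes of cytosolic ribosomal proteins lay all above 0 at a median of 0.23, with 0 calls by any of the tools and 11 at an unadjusted p under 0.05. Their levels were 0.31, 0.29, 0.39 and -0.07 with oxaliplatin and -0.13, 0.13 and 0.01 with vehicle.

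The lower genes of smallest p did not pass. Aifm3, a mitochondrial flavoprotein, stood at 21.4, 26.3, 20.6 and 28.3 CPM with oxaliplatin and 48.7, 39.2 and 37.8 CPM with vehicle (-0.80 ± 0.14, edgeR adjusted p = 0.0856). Myoc, myocilin, and Alpl, tissue-nonspecific alkaline phosphatase, had -1.27 and -1.29 (edgeR adjusted p = 0.118 and 0.125). Rdh5, a retinol dehydrogenase, had -1.29 (edgeR adjusted p = 0.125) and Galnt2l -0.75 (0.135). In all 5 the oxaliplatin mice were below the vehicle mice. At a looser adjusted p under 0.1, 49 genes were higher and 1, Aifm3, was lower.

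Markers of blood leukocytes were scarce. Of 10 neutrophil markers, 1 was tested, and the neutrophil proteins S100a8 and S100a9 had at most 5 counts in oxaliplatin libraries and at most 13 in vehicle libraries. Of 12 lymphocyte markers, 5 were tested and 0 had an unadjusted p under 0.05. Of 13 pituitary markers, 7 were in the table and 6 were tested. The summed level of the 6 was 17.0 to 45.1 CPM with oxaliplatin and 32.7 to 36.3 CPM with vehicle. Gh, growth hormone, had too few counts to be tested and is not in that sum. It had 27, 4, 3 and 15 counts with oxaliplatin and 0, 0 and 1 with vehicle. Among cortex and hippocampus markers the library levels were 1.81, -0.14, 0.07 and 0.06 with oxaliplatin and 0.01, -0.04 and 0.03 with vehicle, and striatum markers had 1.48 in mouse 2. The calls of the endothelial list without mouse 2 numbered 6, as with all libraries.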

How the data were processed

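RNA from 4 oxaliplatin and 3 vehicle hypothalamus samples was stored in RNAlater, extracted with a magnetic bead kit and sequenced from RiboErase (ribosomal RNA depleted) libraries, per the labels' protocols. The submitters' processing notes name STAR 2.5.1a, Partek and DESeq2 without a role, and the build and strandedness are not given in the sources used here. The table deposited by the authors holds estimated counts per gene, not scaled between libraries: 49.1% of values were not whole, and the lowest row sum was 10. Whole counts had been assumed, so values were rounded. Gene starts equalled GENCODE M21 (GRCm38) for 99.4% of identifiers, and coordinates are on that build, with ends as GENCODE gives them. Matching was by symbol, and 51 rows carried joined identifiers.

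Of 25623 genes, edgeR 4.0.16 (R 4.3.3) kept 18941 by filterByExpr (minimum count 10, minimum total 15). The test was the robust quasi-likelihood F test with TMM factors and no covariate, tested also on simulated data. SE is the log2 fold change divided by the square root of F. List levels are mean log2 CPM with a prior count of 2. Total counts set the counting precision, finest for abundant genes. No pair of libraries within a group was a copy of another (lowest chi-square per degree of freedom 6.75).

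The genes and the 51 gene lists were chosen with earlier results of these data known, and a list count is a description. Named genes were the 12 largest called rises with a mean of at least 1 CPM in a group and no overlap, the 5 lower genes of smallest p, called members and up to 3 other members of smallest p of each list, and genes chosen for this tissue, with unnamed gene models left out. The text names part of the list members. Alternatives used DESeq2 1.42.0, limma 3.58.1, other normalisations and filters, thinning, a replicate block, and each library left out. Muscle and fat libraries were not used.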

Additional observations from a re-analysis of the deposited data

Results flagged for a closer look

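Of 121 named genes, 11 had 1 oxaliplatin library far from the other 3 by Dixon's test at the 95% level, where chance alone marks about 1 group in 20. Mouse 2 was high in 4 neuron genes: Slc17a7 at 602 CPM (next highest 25.1), Ppp1r1b at 307 CPM (48.3), Neurod2 at 43.6 CPM (3.77) and Adora2a at 27.7 CPM (4.11). Slc17a7 and Neurod2 are known from cortical neurons and Ppp1r1b and Adora2a from striatal neurons. Without mouse 2 the log2 fold changes of Slc17a7 and Ppp1r1b were 0.29 and 0.53, against 3.71 and 1.94 with it.

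Mouse 5 was high in 3 erythroid genes: the haemoglobin chains Hba-a1 at 405 CPM (next highest 82.0) and Hbb-bs at 396 CPM (80.9), and the anion exchanger Slc4a1 at 14.0 CPM (2.85). Haemoglobin chains have close copies, among which reads may be split. Mouse 5 was low in 3 genes: the ribosomal protein gene Rpl3 at 441 CPM (next lowest 601), the junction gene Lsr at 10.4 CPM (19.4) and B3gnt3 at 1.52 CPM (2.497). The pericyte gene Higd1b was high in mouse 4, at 2.65 CPM (next highest 1.52).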

How the results depend on the processing

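The 28 called genes kept a positive log2 fold change in all 18 alternative fits. The count was 28 with DESeq2 size factors or without small RNA and mitochondrial genes, 29 with upper quartile factors or a mean of at least 1 CPM, 32 without a filter or without robust dispersion, 25 after thinning and 27 with a change of at least 1 on the log2 scale. DESeq2 called 266 genes, limma-voom 11 and limma-voom with quality weights 363, with 11, 2 and 12 in the endothelial list, against 6 with edgeR. Leaving out 1 library gave 0 to 655 genes called and 0 to 12 in the endothelial list, and the cause was not tested. Mouse numbers 2 and 4 occur in both groups. The labels do not say that a number is shared between groups, so the numbers were not taken as pairs. The deviations of same-numbered samples correlated at 0.0323 and -0.0113. With so few shared numbers, these correlations cannot decide on pairing. With the replicate block on mouse number 37 genes were called, 30 higher and 7 lower, 9 of them among the 28.

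Genes that were not called changed sign in some fits. Trh had -0.000439 with DESeq2 size factors, -0.00463 with DESeq2, -0.113 with quality weights, -0.00432 after thinning, -0.00259 without small RNA and mitochondrial genes, and -0.445 with the replicate block. Sst had -0.0741 with quality weights, Avp -0.00557 with the block and Lepr -0.325 with the block. With 1 library left out, the values ran from -0.265 to 0.339 for Trh, from -0.310 to 0.229 for Ghrh, from -0.590 to 0.277 for Pmch, from -0.00364 to 0.318 for Sst, from -0.581 to 0.183 for Oxt and from -0.177 to 0.320 for Lepr. Genes with few counts, such as Lcn2 in vehicle libraries, are limited by depth.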

Other observations

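Of 18 tested genes of haemostasis, Vwf was the 1 called member by edgeR, 15 lay above 0 and the median log2 fold change was 0.37. In the clock list, the median log2 fold change over 21 genes was 0.11, with 8 at an unadjusted p under 0.05. Dbp, a clock output factor, stood at 69.7, 52.97, 62.0 and 100.3 CPM with oxaliplatin and 111, 132 and 138 CPM with vehicle. Its change was -0.84 ± 0.20 (edgeR adjusted p = 0.266, 0.0038 without mouse 5 and 0.417 without mouse 2). Cry1, a clock repressor, had 0.37 (edgeR adjusted p = 0.339). The antioxidant genes of NRF2 had a median of 0.09 over 24, with Osgin1, a growth inhibitor induced by oxidative stress, at 1.77 (edgeR adjusted p = 0.322). Medians were 0.05 over 22 interferon-stimulated genes, -0.03 over 25 genes of the unfolded protein response, -0.05 over 12 heat shock genes and 0.16 over 18 tested cell cycle genes.

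Apod, apolipoprotein D, which oligodendrocytes and stressed glia make, stood at 428, 818, 848 and 185 CPM with oxaliplatin and 146, 164 and 163 CPM with vehicle. Every oxaliplatin mouse was above every vehicle mouse, mouse 5 by little, and the change did not pass (1.86 ± 0.53, edgeR adjusted p = 0.380). Of the 19 genes on the oligodendrocyte list, Apod among them, 14 lay below 0, and the list level of mouse 2 was -1.02. H2-Aa, an antigen-presenting protein of the macrophages around vessels, stood at 0.846, 3.08, 1.62 and 2.22 CPM with oxaliplatin and 3.42, 7.78 and 5.58 CPM with vehicle (-1.52 ± 0.40, edgeR adjusted p = 0.308). Lyve1, a further marker of those cells, was above every vehicle mouse in every oxaliplatin mouse (1.47 ± 0.39, edgeR adjusted p = 0.308).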
